A study of Homo sapiens with 24 samples.

Results

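The compound BRD8518, which the labels give by code name alone, comes from a study of compounds that induce TRIB1, the gene of the pseudokinase tribbles 1. Its effect after 6 h was measured in HepG2, an established human liver carcinoma line. RNA from cells given 1 uM BRD8518 (2 arrays) was compared with RNA from cells given the DMSO vehicle for the same time (4 arrays), on whole-transcript arrays. These 6 of the 24 arrays in the series were chosen by the treatment and time in their labels, and 14884 genes entered the comparison. Both groups held DMSO at 0.25% in medium with serum and came from wells plated with 10000 cells. HepG2 is a tumour line grown alone, so no other liver cell type was present by design. The labels do not say that arrays of a group came from separate cultures. All p-values here thus reflect how far arrays within the groups of the series differ among themselves, and that spread may be technical.

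A growth signal that reaches the MAP kinases switches on a set of genes within minutes, without new protein synthesis. These immediate-early genes encode transcription factors such as EGR1, JUN and FOS, which act on a later set of genes. That later set includes the phosphatases and Sprouty proteins that damp the signal, secreted ligands, and parts of the cytoskeleton that respond to the serum response factor SRF. In hepatocytes the same signals oppose parts of the metabolic programme, and TRIB1 is known for its part in hepatic lipid synthesis and plasma lipids.

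Levels are given as log2 array values, and a change is the BRD8518 mean minus the DMSO mean on that scale with its standard error (SE), so that a change of 1 is a 2-fold difference. Every test at 6 h is the limma fit over all 24 arrays with Benjamini-Hochberg adjustment over the 14884 genes, and a gene is said to have risen or fallen where its adjusted p was under 0.05. By that rule 836 genes rose (5.62%) and 1319 fell (8.86%). Those shares of all genes are the background for the counts within lists given below. At least 2-fold changes numbered 101 upward and 70 downward. Both BRD8518 arrays lay above every DMSO array for 11.9% of all genes and below every DMSO array for 15%. When arrays were instead centred on the median of the genes tested, 1309 rose (8.79%) and 943 fell (6.34%), so which direction was more frequent depends on the scaling. DMSO replicate 2 lay apart from its group: its values differed from the mean of the other DMSO arrays by a median of 0.27, against 0.111 to 0.167 in the other 3. Without BRD8518 replicate 1 or 2, 1349 and 1208 genes passed. Without DMSO replicate 2, 3345 genes passed, 1163 higher (7.81%) and 2182 lower (14.7%). Of the 2155 genes called with all arrays, 2102 were also called without it and 53 were not. The call rests largely on the spread pooled from the 1 h and 24 h groups, which hold most of the 24 arrays. In those groups an array differed from the mean of the rest of its group by a median of only 0.0762 to 0.109. In a fit of the 6 arrays alone 452 genes passed (207 higher, 1.39%, and 245 lower, 1.65%). Genes named below as risen or fallen also passed that fit and every fit with 1 of the 6 arrays left out, unless stated otherwise.

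The cells carried the defining transcripts of their line. ALB, the albumin gene, stood at 12.37, 12.54, 12.37 and 12.47 in DMSO replicates 1 to 4 and at 12.40 and 12.21 in BRD8518 replicates 1 and 2, and AFP, the alpha-fetoprotein gene, at 11.97, 11.80, 11.81 and 11.81 against 11.83 and 11.77. ALB (change −0.14 ± 0.08) and AFP (−0.05 ± 0.07) did not pass, and nor did 11 others of the 17 hepatocyte markers measured. Of the 17, 1 rose (TAT, 5.88%) and 3 fell (APOA1, TF and FOXA2, 17.6%). Without BRD8518 replicates 1 and 2 there were 1 and 0 falls, and in the fit of the 6 arrays alone 0 rises and 0 falls. Their median level was 11.26 to 11.43 in the 6 arrays. Of 18 markers of endothelial, immune, stellate and biliary cells, 2 rose, CD68 (0.51 ± 0.08), a lysosomal protein, and the secreted phosphoprotein SPP1 (0.29 ± 0.08), and 0 fell, beside a background of 5.62% and 8.86%. The median level of these 18 was 5.50 to 5.76 in DMSO and 5.50 and 5.65 in BRD8518. CD68 and SPP1 did not pass in the fit of 6 arrays alone, and SPP1 did not pass without BRD8518 replicate 2 (0.23).

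The gene the compounds were selected on was among the genes that rose. TRIB1 read 8.96, 9.23, 9.20 and 9.21 in DMSO replicates 1 to 4 and 10.61 and 10.47 in the BRD8518 arrays. The lower BRD8518 array lay 1.24 above the highest DMSO array, and the change was 1.39 ± 0.09. From here on, levels joined by "against" are those of DMSO replicates 1 to 4 and then of BRD8518 replicates 1 and 2. TRIB3, the paralogue known for its induction by amino acid shortage, read 8.97, 9.25, 9.06 and 9.09 in DMSO and 9.88 and 9.88 in BRD8518, again without overlap (0.78 ± 0.10). TRIB2, at 5.47, 5.65, 5.53 and 5.59 in DMSO and 5.49 and 5.39 in BRD8518, overlapped between the groups and did not pass (−0.12 ± 0.12, limma, adjusted p = 0.6). The levels of 14 genes on which the account below turns are plotted for every array.

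**Figure D1:**
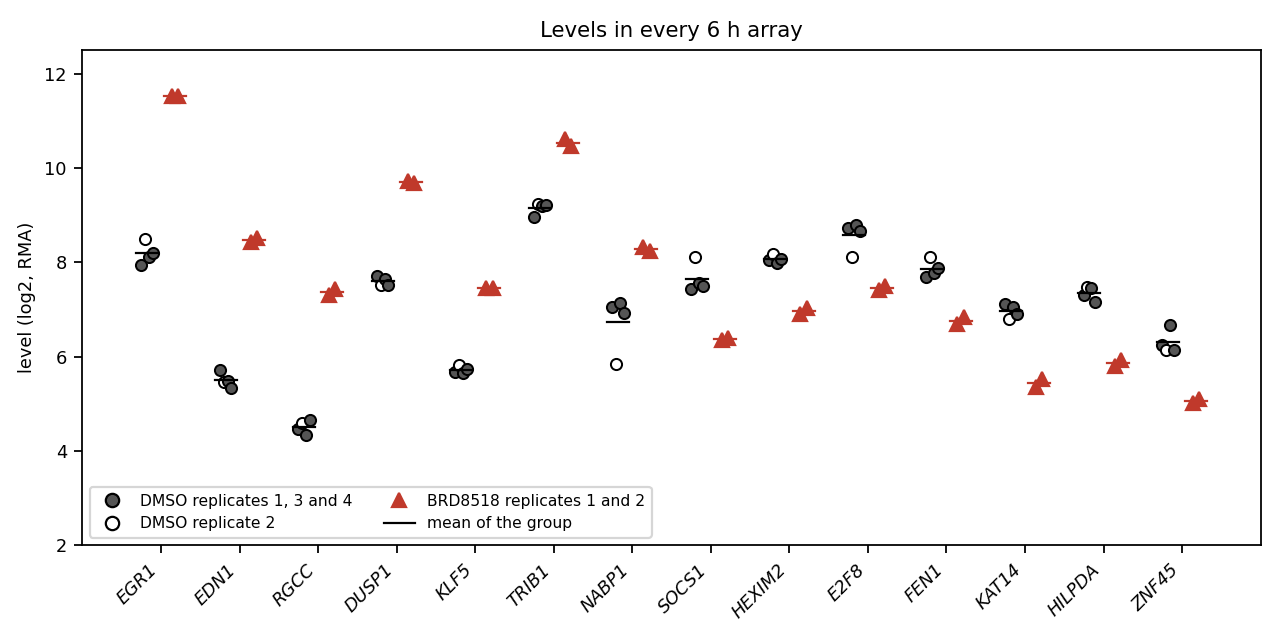
Levels of 14 genes (log2, RMA, vertical axis) in each of the 6 arrays at 6 h: filled circles are DMSO replicates 1, 3 and 4, open circles DMSO replicate 2, triangles the BRD8518 replicates, and lines the group means. Both BRD8518 arrays of each of these genes lie outside the DMSO range, with EGR1 at 11.54 and 11.53 against at most 8.49, while DMSO replicate 2 departs from its group for NABP1 (5.84) and SOCS1 (8.12). The largest rises and falls were named only where the groups did not overlap, so for those genes the separation follows from the choice.

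Immediate-early transcription factors rose in most of the members measured. Of 22 measured, 17 rose and 0 fell, a share of 77.3% beside 5.62% of all genes, and the median change was 0.78 against −0.01 over all genes. The list's median level was 7.05 to 7.57 in the DMSO arrays, highest in replicate 2, and 8.13 and 8.23 in the BRD8518 arrays. Without DMSO replicate 2 it held 18 rises and a median of 0.89.

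EGR1, a zinc-finger factor that binds GC-rich promoters, held 7.95, 8.49, 8.12 and 8.21 in the DMSO arrays and 11.54 and 11.53 in the BRD8518 arrays. The closest arrays of the groups were 3.05 apart, the widest such gap of the 14884 genes, and the fold change was 10.2 (limma, adjusted p = 1.6e-13). NAB2, which encodes a corepressor that binds EGR proteins and is itself one of their targets, stood at 6.80, 7.20, 6.95 and 6.95 in DMSO and 8.41 and 8.39 in BRD8518, 2.69-fold higher. SRF, the factor that drives many immediate-early promoters, stood at 9.51, 9.70, 9.49 and 9.60 against 10.61 and 10.70 (2.11-fold). For each of the 3 genes DMSO replicate 2 was the highest DMSO array, nearest to the BRD8518 level, and the changes were 3.44, 1.50 and 1.12 without it.

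The start of these genes is shown because their promoters hold matches to motifs bound by SRF or EGR proteins. Whether the response to BRD8518 used these sites was not tested. Each sequence below runs 5′ to 3′ on the gene's strand from 150 bases before to 30 after the annotated start (RefSeq, GRCh38.p14), with capitals for the motif named. EGR1 (chr5:138465329-138465508, plus strand) and SRF (chr6:43171119-43171298, plus strand) each hold 2 matches to the CArG box, the site bound by SRF. NAB2 (chr12:57088964-57089143, plus strand) holds 1 match to the EGR motif GCGNGGGCG. Counted from the start site as 0, the matches begin at −105 and −83 in EGR1, at −30 and −10 in SRF and at −62 in NAB2.
EGR1: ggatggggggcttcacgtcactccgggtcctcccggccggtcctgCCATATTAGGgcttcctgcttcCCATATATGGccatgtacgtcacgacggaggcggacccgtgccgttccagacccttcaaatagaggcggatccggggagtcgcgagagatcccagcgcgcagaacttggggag
SRF: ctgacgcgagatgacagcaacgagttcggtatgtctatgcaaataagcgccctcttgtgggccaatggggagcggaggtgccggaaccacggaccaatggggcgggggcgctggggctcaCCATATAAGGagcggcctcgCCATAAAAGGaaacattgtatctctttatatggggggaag
NAB2: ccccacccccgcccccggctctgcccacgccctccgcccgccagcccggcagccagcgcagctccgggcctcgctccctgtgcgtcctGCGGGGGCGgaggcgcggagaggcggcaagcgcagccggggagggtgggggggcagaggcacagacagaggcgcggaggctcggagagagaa

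Both strands of the 300 bases around the start, 250 before and 50 after, were searched in 27305 RefSeq promoters. The CArG box occurred in 1.29% of all of them, in 1.23% of the 10749 promoters of genes tested here, and in 21 of the 654 promoters of genes that rose (3.21%). Of the 1075 promoters of genes that fell, 12 held it (1.12%). Among genes that changed at least 2-fold the shares were close, with 3 of 72 promoters of rises (4.17%) and 2 of 54 of falls (3.70%). The EGR motif occurred in 9.28% of all promoters, in 13.4% of those of genes tested, in 17.6% of those of genes that rose and in 13.4% of those of genes that fell. A match describes letters only, and its binding was not measured.

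The subunits of AP-1, a factor built as a pair of JUN and FOS family proteins, rose in both families. JUN was 7.59, 7.53, 7.67 and 7.59 in DMSO and 9.63 and 9.52 in BRD8518, a 3.95-fold rise. JUNB was 7.11, 7.61, 7.03 and 7.12 against 9.04 and 9.04 (3.53-fold), with DMSO replicate 2 the highest of the DMSO arrays and 1.43 below the lower BRD8518 array. JUND rose 2.01-fold (1.01 ± 0.11). Among the FOS family, FOSL1 went from a mean of 7.91 ± 0.08 in DMSO (SD, n = 4) to 9.36 and 9.49 in the BRD8518 arrays, 2.85-fold, and FOSL2 rose by 0.80 ± 0.09. FOS itself read 5.24, 5.60, 5.14 and 5.80 in DMSO and 6.18 and 6.52 in BRD8518, so the lowest BRD8518 array lay 0.38 above the highest DMSO array, and the change was 0.91 ± 0.17. FOS did not pass in the fit of the 6 arrays alone. ATF3, a stress-induced factor that pairs with JUN proteins, rose 2.26-fold.

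Factors that set growth moved in both an activating and an opposing member. MYC, which drives cell growth genes, held 9.26, 9.28, 9.21 and 9.26 in DMSO, a span of 0.07, and 10.32 and 10.38 in BRD8518, a 2.14-fold rise. MXD1, which competes with MYC for their shared partner MAX and represses the same sites, held 7.69, 6.85, 7.67 and 7.55 against 9.33 and 9.36, a 3.74-fold rise. DMSO replicate 2 was the lowest array for MXD1, and the change without it was 1.71. The ETS factor ETV4, often raised by MAP kinase signalling, was at 10.26 ± 0.21 (SD, n = 4) in DMSO and 10.17 (n = 2) in BRD8518 and did not pass (−0.09 ± 0.10, limma, adjusted p = 0.68). MAFF, a small MAF protein, read 5.61, 6.78, 5.80 and 5.87 in DMSO and 6.25 and 6.53 in BRD8518. The BRD8518 arrays lay below DMSO replicate 2 and above the other 3, and MAFF did not pass with all arrays (0.37 ± 0.19, adjusted p = 0.24) and passed without that array (0.63, adjusted p = 0.00013).

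Krüppel-like factors are zinc-finger proteins with individual roles in growth, metabolism and vessel biology. Of 17 measured, 7 rose (41.2%) and 0 fell, with a median of 0.33 (0.21 without DMSO replicate 2), and 4 rose in the fit of the 6 arrays alone. KLF5, a growth-promoting member, stood at 5.67, 5.82, 5.65 and 5.73 in DMSO and 7.45 and 7.46 in BRD8518, 3.33-fold higher, with a span of 0.17 in DMSO. KLF6 stood at 7.85, 8.23, 8.10 and 8.05 against 9.85 and 9.67, 3.26-fold higher. KLF9 (1.11 ± 0.11) and KLF10 (0.91 ± 0.09), the latter a target of TGF-beta, also rose. KLF2 (0.03 ± 0.15) and KLF4 (0.13 ± 0.09), known for their part in endothelium and stem cells, did not pass (limma, adjusted p = 0.93 and 0.45).

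Feedback on the MAP kinases rose at several layers. Of 19 measured feedback genes, 11 rose and 0 fell (57.9%), with a median change of 0.57. DUSP1, a nuclear phosphatase that inactivates MAP kinases, read 7.71, 7.53, 7.65 and 7.52 in DMSO and 9.72 and 9.69 in BRD8518, 4.3-fold higher with a DMSO span of 0.19. DUSP5, which acts on ERK in the nucleus, read 5.18, 5.65, 5.27 and 5.48 against 7.69 and 7.32 (4.32-fold), and DUSP8, which prefers JNK and p38, read 6.88, 7.16, 6.87 and 6.82 against 8.54 and 8.84 (3.38-fold). The groups did not overlap in these 3, which follows from their choice among the largest rises. Both BRD8518 arrays lay above every DMSO array for 11.9% of all genes. DUSP6, the cytoplasmic ERK phosphatase, rose less, from 7.67, 7.70, 7.88 and 7.79 to 8.71 and 8.62 (1.87-fold), and DUSP10 rose by 0.59 ± 0.13, though not in the fit of the 6 arrays alone. DUSP7 (−0.10 ± 0.08) and DUSP9 (−0.20 ± 0.10), which also act on ERK, did not pass (adjusted p = 0.49 and 0.22).

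Above the kinases, the Sprouty genes, whose products restrain receptor signalling to RAS, rose as well. SPRY4 held 8.84, 9.21, 9.01 and 8.98 in DMSO and 10.79 and 10.82 in BRD8518, 3.47-fold higher, and SPRY2 held 7.54, 7.47, 7.67 and 7.49 against 8.17 and 8.07, 1.49-fold higher. ERRFI1, an inhibitor that binds the EGF receptor kinase, held 10.54, 10.35, 10.78 and 10.69 against 11.87 and 11.70 (2.29-fold). For SPRY2 the gap between the groups, from 7.67 to 8.07, was the narrowest of the 3.

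The promoter of DUSP1 is shown as one of the 4 of 72 promoters of genes up at least 2-fold that hold the cyclic AMP response element TGACGTCA (5.56%, against 2.62% of genes tested and 1.98% of all promoters), and that of IL11 as one of the 9 with the AP-1 motif TGANTCA (12.5%, against 5.92% and 7.76%). DUSP1 (chr5:172771166-172771345, minus strand) holds its match at −125 and IL11 (chr19:55370434-55370613, minus strand) at −96, in capitals. Among all genes that rose the shares were 3.98% for the cyclic AMP response element and 6.27% for the AP-1 motif, the latter near that of genes tested. Among the 54 promoters of genes down at least 2-fold, each motif was held by 2 (3.70%). A match to the cyclic AMP response element does not contain one to the AP-1 motif.
DUSP1: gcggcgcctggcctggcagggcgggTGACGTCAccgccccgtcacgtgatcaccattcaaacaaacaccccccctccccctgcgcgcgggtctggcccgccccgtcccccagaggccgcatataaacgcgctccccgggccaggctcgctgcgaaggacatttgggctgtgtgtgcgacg
IL11: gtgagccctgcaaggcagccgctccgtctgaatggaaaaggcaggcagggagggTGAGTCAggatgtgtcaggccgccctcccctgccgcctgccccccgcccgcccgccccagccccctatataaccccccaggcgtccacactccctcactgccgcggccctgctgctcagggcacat

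Secreted signals rose in a minority of the genes measured, by large amounts. Of 42 cytokines and growth factors, 13 rose and 1 fell (31% and 2.38%), and 3 fell without DMSO replicate 2, with a median of 0.14. EDN1, the gene of the vasoconstrictor peptide endothelin 1, was at 5.72, 5.47, 5.49 and 5.33 in DMSO and 8.43 and 8.51 in BRD8518, a 7.81-fold rise. IL11 and LIF encode cytokines that signal through gp130, the receptor chain also used by interleukin 6. IL11 was at 6.20, 7.01, 6.11 and 6.31 in DMSO, with replicate 2 highest, and 8.58 and 8.53 in BRD8518, 4.44-fold higher. LIF was at 6.35, 6.58, 6.71 and 6.42 against 8.59 and 8.54, 4.15-fold higher. At their closest arrays the groups were 2.71 apart for EDN1, 1.52 for IL11 and 1.83 for LIF.

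Chemokines and stress cytokines rose alongside. CXCL8, which attracts neutrophils, was dim in DMSO at 4.32, 4.44, 4.36 and 4.49 and stood at 6.52 and 6.29 in BRD8518, 4.01-fold higher. CCL20, a ligand of CCR6 on lymphocytes and dendritic cells, was at 7.76, 7.67, 8.03 and 7.97 against 10.15 and 10.03, 4.71-fold higher. GDF15, a stress cytokine that reduces appetite, was already bright in DMSO at 10.87, 11.43, 10.99 and 11.04 and reached 12.59 and 12.48, 2.73-fold higher. CSF1, the macrophage growth factor (0.81 ± 0.07), and FST, which binds and blocks activin (1.13 ± 0.08), rose as well. The 1 fall in the list was ANGPTL4, an inhibitor of lipoprotein lipase, at 6.33, 6.46, 6.32 and 6.51 in DMSO and 5.97 and 6.14 in BRD8518 (−0.35 ± 0.11, adjusted p = 0.039). It did not pass without BRD8518 replicate 1 (−0.26) or 2 (−0.44) or DMSO replicate 4 (−0.31), with quantile normalization (−0.31), with the position letter of the labels as a term, under centring on the genes tested (−0.27), or in the fit of the 6 arrays alone. Of the hormones outside the list, EPO, the gene of erythropoietin, which HepG2 is known to make, was at 8.31, 8.14, 8.32 and 8.24 in DMSO and 7.10 and 7.18 in BRD8518, 2.16-fold lower without overlap.

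Of 14 EGF-family ligands and receptors 3 rose (21.4%) and 0 fell (1 without DMSO replicate 2 or 4), at a median of 0.15. Of the rises, 2 were ligands. EREG, the epiregulin gene, went from 4.53, 4.69, 4.51 and 4.62 to 5.85 and 6.10 (2.62-fold), and HBEGF, the gene of heparin-binding EGF, from 5.69, 5.46, 5.48 and 5.63 to 6.92 and 6.88 (2.52-fold). In the fit of the 6 arrays alone 2 of the 14 rose. EGFR held 6.97, 6.53, 6.87 and 6.69 in DMSO and 6.99 and 6.97 in BRD8518. The BRD8518 arrays lay level with the highest DMSO array and above the other 3, and the change of 0.21 ± 0.12 did not pass (adjusted p = 0.29). The membrane-bound Notch ligand JAG1 was at 10.25, 10.61, 10.39 and 10.35 against 12.12 and 12.02, a 3.19-fold rise.

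Among 27 receptors of cytokines and growth factors 5 rose and 0 fell, 3 rose without BRD8518 replicate 1, and 2 fell without DMSO replicate 2. With all arrays the rises were 18.5% of the list, beside 5.62% of all genes. EPHA2, a receptor for ephrins, was at 9.18, 9.71, 9.24 and 8.99 in DMSO and 10.58 and 10.45 in BRD8518, 2.35-fold higher, although DMSO replicate 2 was nearest to the treated arrays. IL6R, the interleukin 6 receptor chain, was at 7.05, 7.33, 7.14 and 6.94 against 8.16 and 8.16, 2.07-fold higher. AXL, the receptor of GAS6, rose by 0.85 ± 0.10. MET, the receptor of hepatocyte growth factor (0.16 ± 0.11), and OSMR, the receptor of oncostatin M (−0.07 ± 0.07), did not pass (adjusted p = 0.44 and 0.64).

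Genes of the contractile cytoskeleton that respond to SRF with its cofactor MRTF, or to YAP with TEAD, rose in 13 of 19 cases with 0 falls (68.4%). Their median change was 0.35, and 8 rose in the fit of the 6 arrays alone. ANKRD1, a muscle ankyrin repeat protein and a common YAP readout, stood at 9.28, 9.37, 9.53 and 9.55 in DMSO and 11.97 and 11.97 in BRD8518, 5.81-fold higher. TAGLN, an actin-binding protein of smooth muscle, stood at 6.91, 7.13, 7.14 and 7.04 against 8.83 and 8.99, 3.62-fold higher. VCL, the gene of vinculin at focal adhesions, stood at 8.78, 8.78, 8.94 and 8.96 against 9.81 and 9.76, 1.89-fold higher. The DMSO spans of the 3 genes were 0.27, 0.22 and 0.17, and the gaps between the groups 2.42, 1.70 and 0.80. ZYX (0.89 ± 0.09), which moves between adhesions and stress fibres, rose by a lesser amount. Among 26 genes of actin binding and adhesion 6 rose (23.1%) and 0 fell (10 rises without DMSO replicate 2). PDLIM5 (0.90 ± 0.12), which links actin to signalling proteins, its relative PDLIM7 (0.77 ± 0.09) and the tropomyosin gene TPM4 (0.74 ± 0.12) rose. TPM4 did not pass in the fit of the 6 arrays alone.

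The JAK-STAT list of 23 held 6 rises and 2 falls (3 rises without BRD8518 replicate 1, 4 falls without DMSO replicate 2), and its SOCS members moved apart. With all arrays the rises were 26.1% of the list and the falls 8.7%, the latter near the 8.86% of all genes. SOCS proteins are feedback inhibitors of cytokine receptors. SOCS1 was at 7.43, 8.12, 7.56 and 7.49 in DMSO and 6.35 and 6.39 in BRD8518, 2.42-fold lower, with DMSO replicate 2 the farthest from the treated arrays. SOCS6, which acts more on receptor tyrosine kinases, was at 8.74, 8.06, 8.79 and 8.78 against 9.63 and 9.55, 2-fold higher (0.82 on the log2 scale without DMSO replicate 2), and did not pass in the fit of the 6 arrays alone. SOCS3, the inhibitor of gp130 signalling, read 5.55, 5.88, 5.26 and 5.46 against 5.99 and 5.99. The BRD8518 arrays lay 0.11 above the highest DMSO array, and the change of 0.45 ± 0.14 passed narrowly (adjusted p = 0.036). That call was lost without BRD8518 replicate 1 (0.45) or 2 (0.45), without DMSO replicate 1 (0.46), 3 (0.36) or 4 (0.43), when its probe sets were averaged (0.34), and in the fit of the 6 arrays alone. PIM1, a kinase gene induced by STAT factors, was at 8.01, 8.62, 7.93 and 8.02 against 10.01 and 9.94, 3.55-fold higher, and 1.99 on the log2 scale without DMSO replicate 2.

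**Figure D2:**
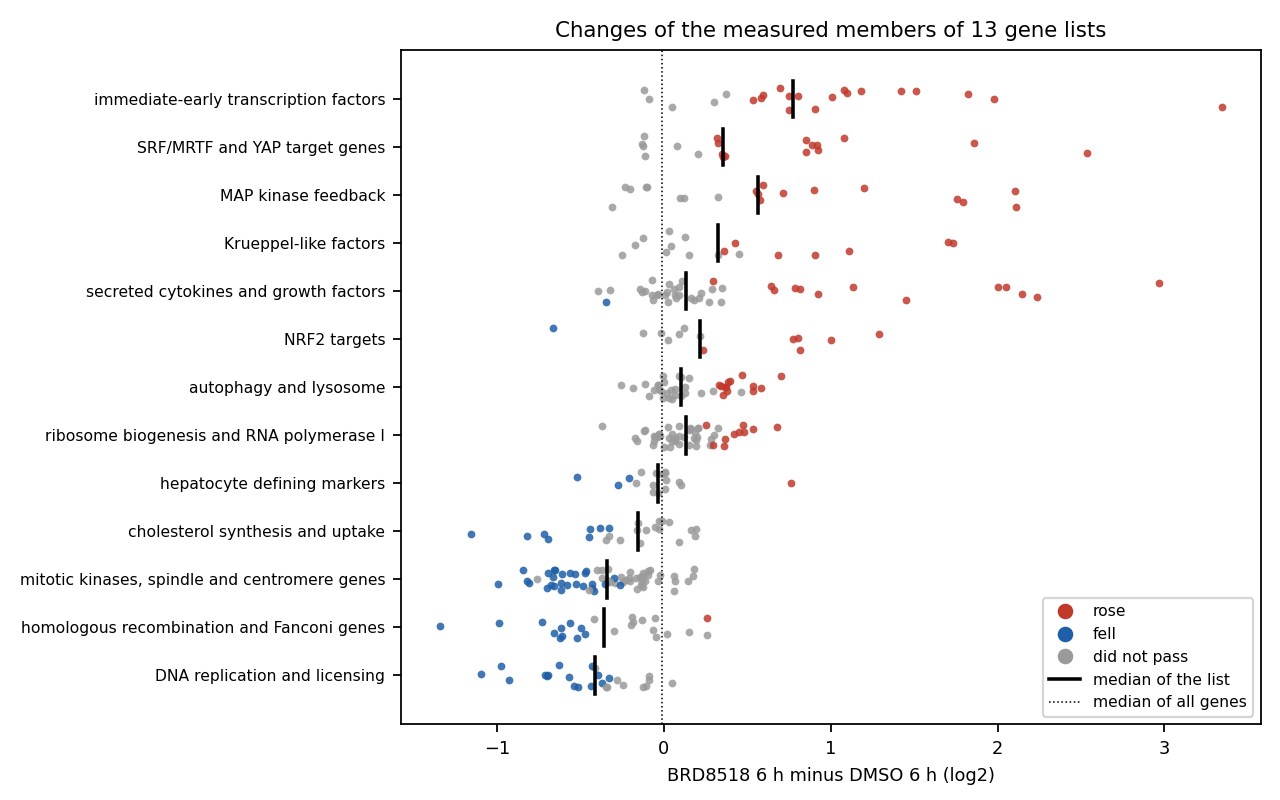
Change of each measured member of 13 gene lists (horizontal axis, BRD8518 6 h minus DMSO 6 h, log2): each point is a gene, red where it rose, blue where it fell and grey where it did not pass, thick bars are list medians and the dotted line is the median of all genes (−0.01). Immediate-early factors reach a median of 0.78 with no fall, and DNA replication genes −0.41 with no rise.

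A list of 19 mRNA decay genes held 7 rises and 2 falls (4 rises without BRD8518 replicate 1, 6 falls without DMSO replicate 2), at a median of 0.06. With all arrays rises were 36.8% and falls 10.5% of the list, beside 5.62% and 8.86% of all genes. CPEB4, which controls the poly(A) tails of cytoplasmic mRNA, held 6.37, 5.92, 6.22 and 6.06 in DMSO and 8.22 and 7.92 in BRD8518, 3.81-fold higher. ZC3H12A, an endonuclease that destroys cytokine mRNA, held 7.17, 7.27, 7.17 and 7.01 against 8.46 and 8.51, 2.51-fold higher. NOCT, a rhythmic member of the deadenylase family, held 8.27, 7.71, 8.41 and 8.14 against 9.35 and 9.40, 2.36-fold higher. The decapping factor DCP1B was 1 of the falls (−0.67 ± 0.13). DCP1B did not pass in the fit of the 6 arrays alone.

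HEXIM1 and HEXIM2 encode the inhibitors that hold P-TEFb, the kinase that releases paused RNA polymerase II, in its inactive complex. HEXIM1 was at 8.41, 8.25, 8.37 and 8.35 in DMSO and 7.46 and 7.50 in BRD8518, 1.82-fold lower. HEXIM2 was at 8.06, 8.17, 7.98 and 8.07 against 6.90 and 7.03, 2.15-fold lower. The gaps between the groups were 0.75 for HEXIM1 and 0.95 for HEXIM2. ELL, an elongation factor gene, was at 7.09, 7.20, 7.19 and 6.98 against 7.79 and 7.68 and rose 1.54-fold. In the whole list of 50 elongation and Mediator genes, 8 rose and 7 fell (12 fell without DMSO replicate 2, and 4 each without BRD8518 replicate 1 and 2), with a median of 0.03. Rises were 16% and falls 14% of that list with all arrays, beside 5.62% and 8.86% of all genes. HEXIM1 and HEXIM2 both overlap HEXIM2-AS1 in RefSeq, and whether the probe sets read 1 strand is not stated in the sources used here.

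Stress genes rose in a few members of each of several pathways. DDIT3, the factor CHOP of the integrated stress response, was at 5.44, 5.15, 5.31 and 5.28 in DMSO and 6.82 and 6.99 in BRD8518, 3.05-fold higher. ERN1, which encodes the endoplasmic reticulum sensor IRE1, was at 6.73, 6.78, 6.87 and 6.74 against 7.93 and 7.85, 2.16-fold higher, and was the 1 rise among 23 genes of endoplasmic reticulum folding, of which 3 fell (7 without DMSO replicate 2, and 1 each without BRD8518 replicate 1 and 2) and of which 2 rose without any 1 of the DMSO arrays. With all arrays 4.35% of the endoplasmic reticulum list rose and 13% fell, beside 5.62% and 8.86% of all genes. SESN2, a sestrin that restrains mTORC1, rose by 0.81 ± 0.09. ASNS, the asparagine synthetase gene, rose by 0.58 ± 0.10 but not in the fit of the 6 arrays alone. ATF4, whose protein drives DDIT3, ASNS and TRIB3 and is mainly controlled at translation, was at 9.50 ± 0.04 (SD, n = 4) in DMSO and 9.49 (n = 2) in BRD8518 and did not pass (adjusted p = 0.96). In the integrated stress response list 6 of 25 rose (24%) and 0 fell (2 without DMSO replicate 2), with a median of 0.04.

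NRF2, encoded by NFE2L2, drives antioxidant genes, and of 13 measured genes, NFE2L2 among them, 6 rose (46.2%) and 1 fell (7.69%). In the fit of the 6 arrays alone 3 of the list rose. SRXN1, the sulfiredoxin gene, stood at 8.26, 8.66, 8.27 and 8.18 in DMSO and 9.69 and 9.58 in BRD8518, 2.45-fold higher, and MAFG, the DNA-binding partner of NRF2, at 6.36, 7.07, 6.52 and 6.40 against 7.63 and 7.55, 2-fold higher. NFE2L2 itself stood at 8.79 ± 0.37 in DMSO (SD, n = 4) and 9.66 and 9.56 in the BRD8518 arrays. Replicate 2 was the lowest DMSO array for NFE2L2, which rose by 0.82 ± 0.14 with it and 0.64 without it, and did not pass in the fit of the 6 arrays alone. HMOX1, the heme oxygenase gene and a classical target, was the fall, at 8.05, 8.21, 8.05 and 8.03 in DMSO and 7.36 and 7.48 in BRD8518 (1.58-fold lower). The autophagy and lysosome list held 13 rises and 0 falls in 40, with 3 and 5 rises without BRD8518 replicates 1 and 2. The 13 rises were 32.5% of that list, and 2 members rose in the fit of the 6 arrays alone. Its members included SQSTM1, the cargo receptor p62 (0.70 ± 0.08), and GABARAPL1, an ATG8 protein of the autophagosome (0.58 ± 0.10).

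Cell division genes fell across several lists. Of 25 DNA replication and licensing genes, 15 fell and 0 rose, 60% beside 8.86% of all genes, with a median of −0.41. Without DMSO replicate 2, 19 fell, and 7 fell in the fit of the 6 arrays alone. FEN1, the nuclease that trims Okazaki fragments, stood at 7.69, 8.12, 7.77 and 7.88 in DMSO and 6.70 and 6.83 in BRD8518, 2.14-fold lower. GINS3, a subunit of the replicative helicase, stood at 8.35, 8.29, 8.41 and 8.40 against 7.32 and 7.45, 1.97-fold lower. TIPIN, which steadies forks, fell by 0.93 (SE 0.10). Outside the list, TICRR, which helps load the helicase activator CDC45, stood at 9.29, 8.97, 9.41 and 9.31 against 8.11 and 8.03, 2.26-fold lower. In FEN1, GINS3, TICRR and TIPIN both BRD8518 arrays lay under every DMSO array, as they did for 15% of all genes. For TICRR this follows from its choice among the largest falls.

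The promoter of GINS3 (chr16:58392321-58392500, plus strand) is shown with its E2F motif, TTTCCCGC on the other strand, in capitals across the start site. That motif occurred in 7 of the 21 promoters of replication genes (33.3%), which were taken by list whether or not the gene fell. It was held by 3.16% of the promoters of genes that fell and 1.22% of those of genes that rose. The share was 2.20% among genes tested and 1.66% among all promoters. Of the 54 promoters of genes down at least 2-fold, 1 held it (1.85%). Of the 53 promoters of mitotic genes 1 held it (1.89%). The CCAAT box was found in 73.6% of 53 promoters of mitotic genes and in 61.9% of those of replication genes. Its share was 44.3% among genes that fell, 33.5% among genes that rose and 36% among genes tested.
GINS3: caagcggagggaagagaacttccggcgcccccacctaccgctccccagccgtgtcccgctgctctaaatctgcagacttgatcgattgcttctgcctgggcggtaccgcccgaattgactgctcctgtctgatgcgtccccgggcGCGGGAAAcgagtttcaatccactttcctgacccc

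The falls named here include 4 E2F factors, which bind the E2F motif. What share of all E2F genes fell was not counted. E2F2, an activator, was at 6.97, 7.62, 6.90 and 6.80 in DMSO and 5.96 and 5.94 in BRD8518, 2.18-fold lower, and −0.94 on the log2 scale without DMSO replicate 2, its highest DMSO array. E2F8, a repressor late in S phase, was at 8.73, 8.11, 8.80 and 8.66 against 7.42 and 7.50, 2.16-fold lower, and for it DMSO replicate 2 was the lowest DMSO array (−1.27 without it). E2F7, the related repressor, fell by 0.70 (SE 0.10). E2F1 fell by 0.55 (SE 0.14) but did not pass without BRD8518 replicate 1 (−0.55) or 2 (−0.55). RBL1, the pocket protein p107, fell by 0.69 (SE 0.10). CCNE2, the cyclin of S-phase entry, fell by 0.82 (SE 0.15) and CCNF, a cyclin that works in a ubiquitin ligase, was at 7.81, 8.37, 8.02 and 7.86 against 6.77 and 6.72, 2.42-fold lower. E2F7, E2F1 and CCNE2 did not pass in the fit of the 6 arrays alone. CCND1, the cyclin D1 gene, and CDK4, its kinase, did not pass (0.09 ± 0.10 and 0.03 ± 0.08, adjusted p = 0.67 and 0.89).

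Of 23 genes of G1/S control, 10 fell (43.5%), and the 1 that rose (4.35%) was RGCC, a regulator known to bind CDK1. Without DMSO replicate 2, 13 of the list fell, and 3 fell in the fit of the 6 arrays alone. RGCC was at 4.47, 4.59, 4.35 and 4.66 in DMSO and 7.32 and 7.44 in BRD8518. It rose 7.26-fold from a dim level, with 2.66 between the closest arrays of the groups. PLK3, the stress-responsive member of the polo-like kinases, was at 6.93, 7.19, 7.09 and 7.02 against 9.31 and 9.22, a 4.6-fold rise.

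Homologous recombination and Fanconi genes, which mend breaks and crosslinks in S phase, fell in 11 of 24 cases with 1 rise (17 falls without DMSO replicate 2, 0 rises without BRD8518 replicate 1 or 2), at a median of −0.36. With all arrays the falls were 45.8% and the rise 4.17% of the list. FIGNL1, an ATPase of break repair, stood at 7.21, 6.27, 7.36 and 7.07 in DMSO and 5.62 and 5.65 in BRD8518, 2.54-fold lower. XRCC2, another break repair gene, stood at 8.40, 7.85, 8.48 and 8.45 against 7.28 and 7.33, 1.99-fold lower. Both had DMSO replicate 2 as the lowest of the DMSO arrays, and the changes without it were −1.58 and −1.14. EME1, a subunit of a junction-cutting nuclease, fell by 0.73 (SE 0.11).

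Of 62 genes of mitotic kinases, spindle and centromere, 27 fell and 0 rose with all arrays (43.5%), and 45 fell without DMSO replicate 2. CENPI, an inner kinetochore protein, was at 8.56, 7.53, 8.74 and 8.48 in DMSO and 7.40 and 7.27 in BRD8518, 1.99-fold lower. DMSO replicate 2 sat only 0.12 above the nearer BRD8518 array there, and the change without it was −1.26. For KIFC1, a minus-end kinesin, replicate 2 lay on the other side, at 8.47, 9.10, 8.52 and 8.54 in DMSO and 7.85 and 7.78 in BRD8518 (1.79-fold lower). CENPM of the inner kinetochore (−0.82 ± 0.13) and NDC80 of the outer kinetochore (−0.81 ± 0.12) fell as well. CENPI, KIFC1, CENPM and NDC80 did not pass in the fit of the 6 arrays alone, where 6 genes of the list fell. The list's median level was 8.52, 8.03, 8.61 and 8.53 in DMSO replicates 1 to 4 and 8.04 and 7.97 in BRD8518, so that DMSO replicate 2 lay at the treated level. Its part in the list's result was not tested beyond the counts with and without it.

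Chromatin factors fell in single, sharp cases. KAT14, an acetyltransferase of the ATAC complex, was at 7.12, 6.80, 7.05 and 6.91 in DMSO and 5.36 and 5.52 in BRD8518, 2.88-fold lower with the groups 1.27 apart. RBBP6, a ubiquitin ligase that binds RB and p53 and takes part in mRNA 3′-end formation, was at 9.79, 9.10, 9.84 and 9.77 against 8.33 and 8.29, 2.49-fold lower. KDM4D, a histone H3 lysine demethylase, was at 6.78, 6.14, 6.77 and 6.67 against 5.63 and 5.19, 2.27-fold lower. MEAF6, a subunit shared by MYST acetyltransferase complexes, rose by 0.84 ± 0.13, but not in the fit of the 6 arrays alone. Among 38 histone acetylation and deacetylation genes 6 rose and 6 fell (1 and 3 rises without BRD8518 replicates 1 and 2, and 3 falls without replicate 2), at a median of −0.01, or 0.07 with arrays centred on the genes tested. Rises and falls with all arrays were each 15.8% of that list, beside 5.62% and 8.86% of all genes. In the fit of the 6 arrays alone 0 of the list rose and 1 fell. KAT14 overlaps PET117 in RefSeq, and the part of that transcript in its values was not tested. FAM200C, a gene derived from a transposon, was at 6.28, 5.25, 6.39 and 5.59 in DMSO and 4.04 and 3.87 in BRD8518 and fell by 1.92 (SE 0.21). Its DMSO arrays themselves spanned 1.14, and its BRD8518 arrays read near 4, where signal over background was not measured.

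Genes named ZNF, most of which encode KRAB zinc-finger repressors of transposons, fell in 113 of 471 cases and rose in 10, or 24% and 2.12% beside 8.86% and 5.62% of all genes. Their median change was −0.19, and −0.11 when arrays were centred on the genes tested. Without DMSO replicate 2, 178 fell and 16 rose, without BRD8518 replicate 1, 4 rose, without BRD8518 replicate 2, 65 fell, and in the fit of the 6 arrays alone 27 fell. The median level of the family was 6.23, 5.97, 6.25 and 6.14 in DMSO replicates 1 to 4 and 5.87 and 5.89 in BRD8518. DMSO replicate 2 thus lay nearest to the treated arrays, and its removal raised the count.

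On chromosome 19, which holds the largest clusters of these genes, 64 of 226 ZNF genes fell (28.3%) and 2 rose (0.885%), at a median of −0.28. On the other chromosomes 49 of 245 fell (20%) and 8 rose (3.27%), at a median of −0.11. Other genes of chromosome 19 fell in 53 of 855 cases (6.20%) and rose in 44 (5.15%), at a median of −0.04. Without BRD8518 replicate 2, 39 ZNF genes of chromosome 19 and 26 of the others fell (32 of the others without BRD8518 replicate 1), and without DMSO replicate 2, 100 and 78. The genes of chromosome 19 other than ZNF held 27 and 28 falls without BRD8518 replicates 1 and 2, 70 rises without DMSO replicate 2 and 27 rises without BRD8518 replicate 2. Their median was 0.04 with arrays centred on the genes tested. A run of 18 neighbours from ZNF45 to ZNF180, whose bounds were set after the values were seen, held 11 falls and 0 rises with a median of −0.71. ZNF45 was at 6.25, 6.15, 6.67 and 6.14 in DMSO and 5.01 and 5.10 in BRD8518, and its neighbour ZNF221 at 5.08, 4.01, 4.73 and 4.47 against 3.58 and 2.81. ZNF223 (−1.25 ± 0.14), ZNF230 (−1.09 ± 0.21) and ZNF284 (−1.07 ± 0.14) fell in the same run. Elsewhere on the chromosome ZNF563 was at 6.58, 5.65, 6.62 and 6.23 against 5.21 and 4.33, so that its BRD8518 arrays lay 0.44 and 1.32 below the lowest DMSO array. ZNF563 and ZNF221 did not pass in the fit of the 6 arrays alone. ZNF697 was among the 10 that rose (0.76 ± 0.09). Probe sets of such similar genes may read each other, and many of these levels lie in the lower part of the range.

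**Figure D3:**
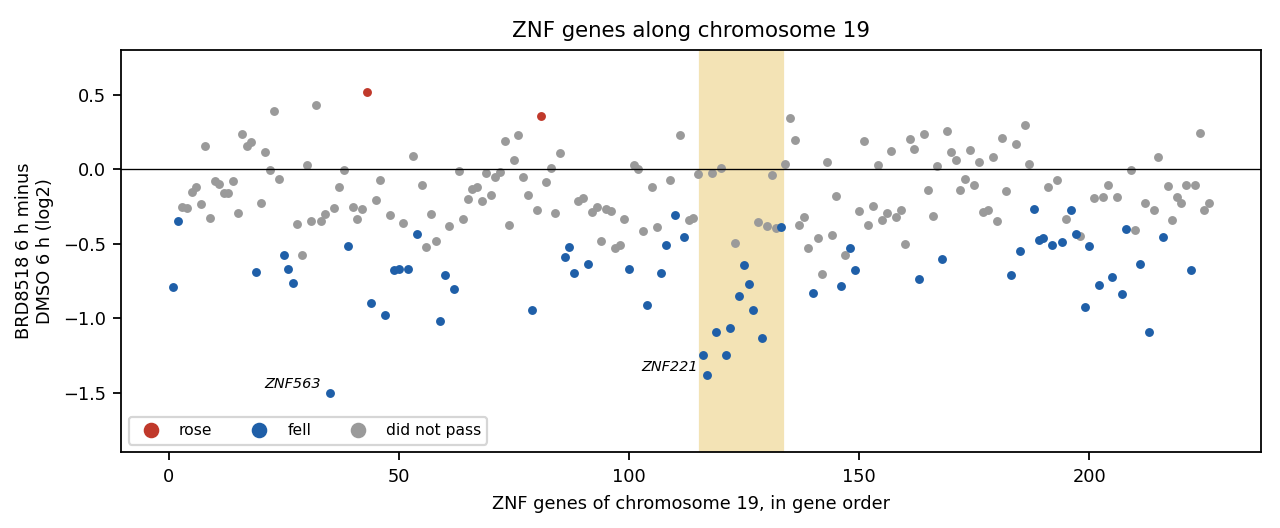
Change of the 226 ZNF genes of chromosome 19 (vertical axis, BRD8518 6 h minus DMSO 6 h, log2) in the order of their starts along the chromosome (horizontal axis, rank), red where a gene rose, blue where it fell and grey where it did not pass; the shaded run is ZNF45 to ZNF180. In the shaded run 11 of 18 genes fell, and along the whole row 64 fell and 2 rose.

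In lipid metabolism the falls included genes of storage, peroxisomes and sterol synthesis. HILPDA, which inhibits lipolysis on lipid droplets and is known as a hypoxia target, was at 7.32, 7.48, 7.45 and 7.16 in DMSO and 5.81 and 5.93 in BRD8518, 2.79-fold lower. MOGAT1, which makes diacylglycerol, was at 6.19, 5.64, 6.11 and 5.68 against 4.78 and 4.73, 2.22-fold lower, and PNPLA3, a lipid droplet protein, fell by 0.68 (SE 0.10). In all 3 the groups did not overlap, which for HILPDA follows from its choice among the largest falls. ACSL5, which activates fatty acids for storage, went the other way, from 9.30, 8.79, 9.37 and 9.28 to 9.93 and 9.85 (1.63-fold). The fatty acid and triglyceride list of 38 held 6 falls (15.8%) and 4 rises (10.5%) with all arrays, and 14 falls and 3 rises without DMSO replicate 2. The count of rises was 1 without BRD8518 replicate 1 and 1 without replicate 2. Of 23 hypoxia targets 5 fell (21.7%) and 3 rose (13%), beside 8.86% and 5.62% of all genes, at a median of −0.14. In the fit of the 6 arrays alone 2 of them fell and 0 rose.

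Fatty acid oxidation and ketogenesis as a list had 2 falls in 15 (13.3%, beside 8.86% of all genes) and 0 rises. CPT2 was among these falls, and the list had 0 falls in the fit of the 6 arrays alone. PEX11A and CROT, given for the size of their change, lie outside the list. PEX11A, which divides peroxisomes, stood at 6.24, 6.62, 6.21 and 6.02 in DMSO and 4.94 and 5.12 in BRD8518, 2.37-fold lower. CROT, which moves medium-chain acyl groups out of peroxisomes, stood at 6.72, 5.57, 6.74 and 6.39 against 5.23 and 4.96. CPT2, a mitochondrial enzyme of fatty acid oxidation, stood at 7.69, 8.19, 7.71 and 7.56 against 7.06 and 6.67. For CROT, DMSO replicate 2 lay 0.34 above the higher BRD8518 array and at least 0.82 below the other DMSO arrays, and the change was −1.26 with it and −1.52 without. For CPT2 it was the highest array (−0.92 and −0.79). CROT, CPT2 and ACSL5 did not pass in the fit of the 6 arrays alone.

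Cholesterol synthesis and uptake held 8 falls and 0 rises in 24 (33.3%), at a median of −0.16, and 2 falls in the fit of the 6 arrays alone. IDI1, an isomerase of isoprenoid units, was at 8.13, 8.04, 8.22 and 8.19 in DMSO and 7.43 and 7.21 in BRD8518, 1.77-fold lower. HSD17B7, a late enzyme of the pathway, was at 7.03, 5.84, 7.33 and 7.01 against 5.69 and 5.60. For HSD17B7 DMSO replicate 2 lay 0.15 above the higher BRD8518 array, and the change was −1.16 with it and −1.48 without it, and the gene did not pass in the fit of the 6 arrays alone. Of the genes that carry lipoproteins out of the liver, APOB held 12.56, 12.64, 12.61 and 12.58 in DMSO and 12.59 and 12.47 in BRD8518 and did not pass (−0.06 ± 0.07, adjusted p = 0.66). MTTP, the transfer protein that loads APOB with lipid, held 9.08, 7.96, 8.95 and 9.01 against 8.78 and 8.71. DMSO replicate 2 was at least 0.99 below the other DMSO arrays and 0.76 below the lower BRD8518 array, and the change was −0.00 ± 0.20 with it (adjusted p = 1) and −0.27 without it (adjusted p = 0.051). APOA1 held 8.76, 9.50, 8.61 and 8.69 against 8.34 and 8.39 and fell by 0.52 (SE 0.16). Without DMSO replicate 2, its highest array, the change was −0.32, still past the threshold, and APOA1 did not pass without BRD8518 replicate 1 (−0.50) or 2 (−0.55), under centring on the genes tested (−0.45), or in the fit of the 6 arrays alone.

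Secreted liver proteins changed in shares near or under those of all genes, and hepatocyte transcription factors in larger shares. Of 45 secreted liver proteins 3 rose (6.67%) and 1 fell (2.22%), beside 5.62% and 8.86% of all genes (6 rises and 3 falls without DMSO replicate 2). Of 16 hepatocyte transcription factors 4 rose (25%) and 5 fell (31.2%), with 0 rises and 0 falls in the fit of the 6 arrays alone. HAMP, the gene of the iron hormone hepcidin, was at 9.22, 9.76, 8.80 and 9.18 in DMSO and 10.18 and 10.37 in BRD8518, 2.05-fold higher, and LEAP2, the antimicrobial peptide and ghrelin antagonist, at 7.41, 7.12, 7.36 and 7.24 against 7.81 and 7.91 (1.49-fold). The DMSO arrays of HAMP spanned 0.95, nearly the size of the change. TF, the transferrin gene, fell slightly, from a mean of 12.02 ± 0.03 in DMSO (SD, n = 4) to 11.76 and 11.72 in the BRD8518 arrays. That call was lost when BRD8518 replicate 2 was left out (−0.25). ONECUT1, a hepatocyte transcription factor, fell by 0.54 (SE 0.14) but did not pass without BRD8518 replicate 1 (−0.56) or 2 (−0.53). HAMP, LEAP2, TF and ONECUT1 did not pass in the fit of the 6 arrays alone. AHR, the receptor for dioxin and other aryl ligands, was at 9.62, 8.88, 9.74 and 9.73 against 10.89 and 10.84, 2.59-fold higher, and 1.17 on the log2 scale without DMSO replicate 2, its lowest array.

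Precursors of microRNAs held 32 rises and 18 falls among 1072, or 2.99% and 1.68%, beside 5.62% and 8.86% of all genes. Their median level was 3.84 to 3.90 in the DMSO arrays and 3.915 and 3.819 in BRD8518, against 5.93 to 6.02 for all genes. Signal over background was not measured at such levels, so the low shares need not mean a weaker response. There were 49 rises and 41 falls without DMSO replicate 2, 18 and 11 without BRD8518 replicate 1, and 21 and 10 without BRD8518 replicate 2. MicroRNAs are cut from longer transcripts and pair with mRNA through their seed, bases 2 to 8. The mature products of 3 precursors that rose are shown with the seed in capitals (RefSeq, GRCh38.p14) to let their targets be recognised, and the 3 seeds differ. The mature forms were not measured.
miR-21-5p: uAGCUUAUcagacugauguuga
miR-24-3p: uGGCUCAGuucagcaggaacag
miR-221-3p: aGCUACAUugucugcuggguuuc

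MIR21, an oncogenic microRNA under AP-1 control, was at 7.11, 7.44, 7.46 and 7.19 in DMSO and 9.41 and 9.24 in BRD8518, 4.07-fold higher. MIR24-2 was at 5.71, 5.79, 5.72 and 5.87 against 7.13 and 6.95, 2.42-fold higher. MIR221, which represses the CDK inhibitor p27, was at 4.63, 4.34, 4.63 and 4.61 against 5.57 and 5.32, 1.85-fold higher. These probe sets lie within VMP1, MIR23AHG and MIR222HG, and host and precursor cannot be told apart by them. MIR3189 lies in an intron of GDF15 and rose 6.89-fold, from 6.15, 6.90, 6.41 and 6.35 to 9.33 and 9.13. Of the falls, MIR570 in MIR570HG was at 7.95, 7.28, 8.28 and 7.57 against 5.93 and 6.42, and MIR573 at 5.15, 4.74, 5.75 and 5.05 against 3.71 and 4.12, with DMSO replicate 3 the highest array of both. MIR573 did not pass in the fit of the 6 arrays alone, and its BRD8518 arrays read near 4, where signal over background was not measured. The non-coding LINC-PINT, a p53-responsive RNA, was at 7.40, 6.92, 7.80 and 7.29 in DMSO and 9.64 and 9.47 in BRD8518, 4.59-fold higher.

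Of the other wide rises, KRTAP2-3, a keratin-associated protein gene, was at 5.70, 4.65, 6.00 and 5.80 in DMSO and 8.21 and 8.46 in BRD8518, 6.94-fold higher. SH3RF1, a scaffold of the JNK pathway, was at 6.89, 6.81, 7.04 and 6.94 against 8.78 and 8.72, 3.55-fold higher. NABP1, a protein that coats single-stranded DNA, was at 7.05, 5.84, 7.13 and 6.93 against 8.33 and 8.25, and DMSO replicate 2 lay at least 1.08 below the other DMSO arrays. Its change was 1.55 with that array and 1.26 without it, and it did not pass in the fit of the 6 arrays alone. Among the falls, CCDC18, a coiled-coil protein, was at 6.76, 5.93, 6.91 and 6.53 in DMSO and 5.20 and 5.05 in BRD8518 (2.64-fold lower), and KBTBD7, an adaptor of a ubiquitin ligase, was at 7.03, 6.26, 6.92 and 6.68 against 5.55 and 5.33 (2.43-fold lower). CCDC18 overlaps TMED5 in RefSeq.

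The 6 h effect was then set against the effect of the same dose at 1 h, each taken against its own DMSO arrays (3 BRD8518 and 3 DMSO arrays at 1 h), with the difference tested in the same fit. The effect was higher at 6 h for 313 genes (2.1%) and lower for 582 (3.91%), or for 494 and 332 with arrays centred on the genes tested. These 895 (6.01%) became 1898 without DMSO 6 h replicate 2, 558 and 498 without BRD8518 6 h replicates 1 and 2, 401 with the position letter of the labels as a term, and 327 in a fit of the compared groups alone. At 1 h the DMSO arrays all carry the position letter B and the BRD8518 arrays carry B or C. Letter and treatment therefore cannot be fully told apart in the 1 h effect. Of the 313, 303 rose at 6 h, and of the 582, 563 fell. The 38 genes past the threshold at 1 h were 33 rises and 5 falls. At 6 h, 30 of the 33 also rose and 2 of the 5 also fell. For 20 of the 38 the effect was higher at 6 h, for 1 it was lower, and for 17 the difference did not pass.

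EGR1, FOS and DUSP6 had passed the test at 1 h and passed it at 6 h. EGR1 was at 3.04 ± 0.13 after 1 h and 3.34 ± 0.14 after 6 h, with a difference of 0.31 ± 0.19 that did not pass (adjusted p = 0.46). FOS was at 1.13 ± 0.16 and 0.91 ± 0.17 (difference −0.22 ± 0.24, adjusted p = 0.72), and DUSP6 at 0.81 ± 0.08 and 0.90 ± 0.08 (difference 0.09 ± 0.12, adjusted p = 0.79). Against the 24 h DMSO arrays the 3 genes stood at 2.48 ± 0.13, 0.25 ± 0.16 and 0.91 ± 0.08 after 24 h of BRD8518 (3 arrays each), where FOS did not pass. FOS also did not pass at 6 h in the fit of the 6 arrays alone. JUN (1.49 ± 0.08 at 1 h and 1.98 ± 0.08 at 6 h) and JUNB (1.09 ± 0.12 and 1.82 ± 0.13) had a higher effect at 6 h, by 0.49 ± 0.11 and 0.73 ± 0.17.

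The effect of several genes was larger at 6 h than at 1 h. RGCC went from 0.30 ± 0.14 at 1 h to 2.86 ± 0.15 at 6 h, a difference of 2.56 ± 0.20 (adjusted p = 6.5e-08), and was at 4.13 ± 0.14 at 24 h. EDN1 had 1.05 ± 0.13, 2.97 ± 0.13 and 1.45 ± 0.13 at 1, 6 and 24 h, and PLK3 0.17 ± 0.08, 2.20 ± 0.09 and 1.87 ± 0.08. RGCC was thus highest at 24 h among the times, and EDN1 at 6 h, though effects at 6 and 24 h were not compared by test. IL11 (0.24 ± 0.15, 2.15 ± 0.16 and 3.16 ± 0.15) and LINC-PINT (0.14 ± 0.16, 2.20 ± 0.17 and 2.83 ± 0.16) had their highest value at 24 h, as RGCC did. The differences from 1 h to 6 h were 2.51 ± 0.32 for KRTAP2-3, 1.95 ± 0.14 for ANKRD1, 1.78 ± 0.18 for CPEB4, 1.72 ± 0.30 for NABP1 and 1.69 ± 0.12 for SH3RF1. TRIB1 had 0.20 ± 0.08 at 1 h and 1.39 ± 0.09 at 6 h, a difference of 1.19 ± 0.12 (adjusted p = 1.6e-06), and was at 1.21 ± 0.08 at 24 h.

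**Figure D4:**
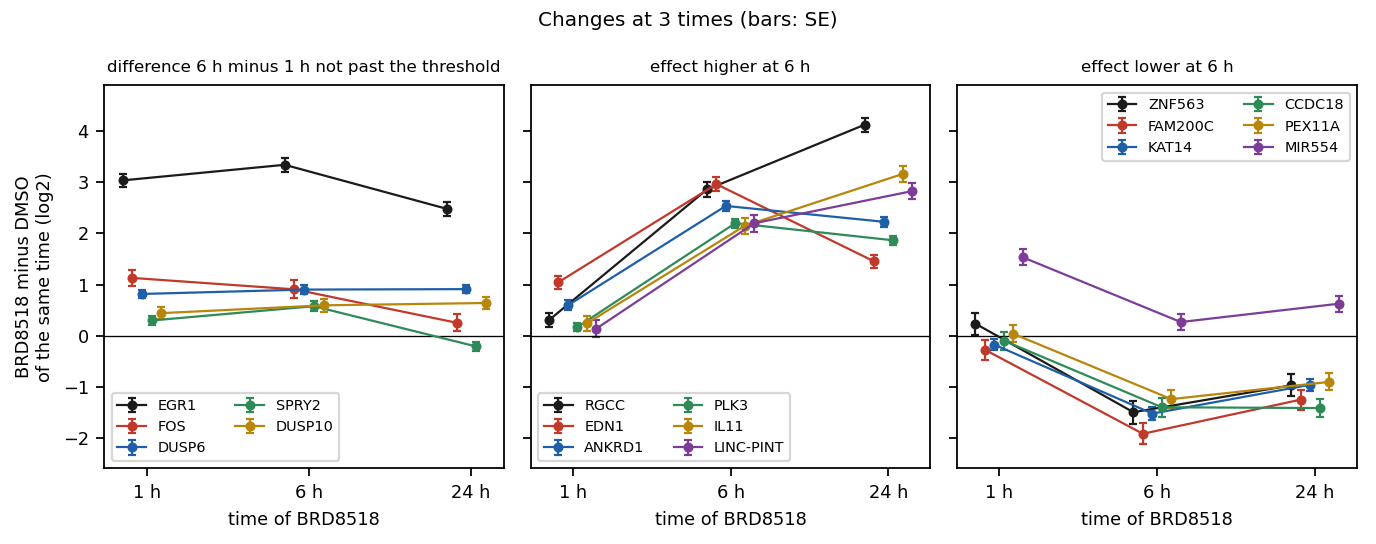
Change against DMSO of the same time (vertical axis, log2, bars are the SE of the fit) at 1 h, 6 h and 24 h of BRD8518 (horizontal axis, not to scale): left, genes whose 6 h and 1 h effects did not differ past the threshold; middle, genes with a higher effect at 6 h; right, genes with a lower effect at 6 h. EGR1 reads 3.04, 3.34 and 2.48, RGCC reads 0.30, 2.86 and 4.13, and KAT14 reads −0.18, −1.53 and −0.96.

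Of the falls given here with their time course, none had passed at 1 h. FAM200C had −0.28 ± 0.20 at 1 h, −1.92 ± 0.21 at 6 h and −1.25 ± 0.20 at 24 h, and KAT14 −0.18 ± 0.11, −1.53 ± 0.12 and −0.96 ± 0.11. ZNF563 (0.23 ± 0.22, −1.50 ± 0.23 and −0.97 ± 0.22) and ZNF223 (0.04 ± 0.13, −1.25 ± 0.14 and −0.78 ± 0.13) had values nearer to 0 at 24 h than at 6 h. RBBP6 had −0.11 ± 0.13, −1.31 ± 0.14 and −0.15 ± 0.13, and HEXIM2 0.06 ± 0.08, −1.11 ± 0.08 and −0.34 ± 0.08, both nearer to 0 at 24 h than at 6 h. The mitotic list had medians of −0.04, −0.34 and −0.71 at the 3 times, and the replication list −0.08, −0.41 and −1.08. The differences between 6 h and 1 h were −1.30 ± 0.26 for CCDC18, −1.28 ± 0.24 for PEX11A, −1.53 ± 0.35 for HSD17B7, −1.35 ± 0.28 for KBTBD7 and −1.35 ± 0.34 for ZNF221. HSD17B7 lost this call without BRD8518 6 h replicate 2 (−1.49), and ZNF221 without BRD8518 6 h replicate 2 (−0.96) or BRD8518 1 h replicate 2 (−1.19). Both lost it in the fit of the compared groups alone, and with the position letter of the labels as a term (−1.48 and −1.11), as did KBTBD7 (−1.17).

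A pair of non-coding genes ran against these patterns. MIR554, whose precursor lies within TUFT1, was the 1 gene past the threshold at 1 h with a lower effect at 6 h: 1.53 ± 0.15 at 1 h, 0.27 ± 0.16 at 6 h and 0.62 ± 0.15 at 24 h, a difference of −1.27 ± 0.22 (adjusted p = 0.00097). Its 6 h levels were 3.84, 3.67, 4.25 and 3.96 in DMSO and 4.29 and 4.09 in BRD8518, near 4, where signal over background was not measured. Its 1 h means were 4.15 in DMSO and 5.68 in BRD8518. MIR17HG, from which the microRNAs of the miR-17 cluster are cut, read −0.94 ± 0.15 at 1 h, 0.44 ± 0.16 at 6 h and −0.04 ± 0.15 at 24 h. Its effect was 1.39 ± 0.22 higher at 6 h than at 1 h (adjusted p = 0.00032), while the 6 h value alone did not pass and its BRD8518 arrays, 6.60 and 5.84, were 0.76 apart.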

How the data were processed

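RNA of HepG2 cells was measured on 24 whole-transcript arrays, of which 4 (DMSO) and 2 (BRD8518) at 6 h form the main comparison. The deposited values are log2 expression levels per probe set, one column per array, and per the submitters' processing notes RMA in the package oligo was used. Which versions were run is not stated in the labels, and RMA shrinks changes of dim genes. Of 53617 probe sets, 16098 carry 1 gene symbol in the platform's annotation, 0 several and 37519 none. Each of 14884 genes was represented by its brightest probe set on average. The number of arrays limits the precision: the median SE of a 6 h change was 0.12 and the median 95% interval extended 0.25 to each side.

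Means of all groups were fitted over 24 arrays with limma 3.58.1 in R 4.3.3 (lmFit, eBayes, Benjamini-Hochberg over 14884 genes). The same fit tested the 6 h effect minus the 1 h effect. Every deposited column could be assigned to a sample. The fit was tested on simulated data. The alternatives were a fit of the compared groups alone, other scalings, array weights, the mean of probe sets, the position letter in the labels as a fixed term or random block, a filter on dim genes, a stricter threshold, and leaving out each array.

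The genes and the lists were chosen with earlier results of these data known. Genes were named by a rule: the 30 largest rises and falls outside the DMSO range, the 10 largest differences each way between 6 h and 1 h, the largest changes within each list, members that did not pass where their list is described, and TRIB1, TRIB2, TRIB3, APOB and MTTP. CSF1, DUSP10, FOS, FOSL2, FST, JUND, MIR17HG, MIR221, MYC, NAB2, SPRY2, ZNF230 and ZNF284 lie outside it and were chosen after their values were seen. The largest changes of 1 list are not reported here. Promoter and microRNA sequences are from RefSeq, GRCh38.p14, and 10749 of the 14884 genes matched a promoter by symbol. Figures were drawn with matplotlib 3.10.9.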

Additional observations from a re-analysis of the deposited data

Results flagged for a closer look

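In the 4 DMSO arrays at 6 h a level stood far from the other 3 for the genes listed here, where chance alone would mark about 1 in 20 such groups. For the array called DMSO replicate 2 these were high levels of JUNB (7.61), PIM1 (8.62), HMOX1 (8.21), E2F1 (9.88), KIFC1 (9.10), CENPM (7.81), CCND1 (10.43) and APOA1 (9.50). Its low levels were those of MET (9.01), TPM4 (8.07), SOCS6 (8.06), DCP1B (5.31), E2F7 (7.56), XRCC2 (7.85), RBBP6 (9.10), MEAF6 (8.12), ACSL5 (8.79), MTTP (7.96), AHR (8.88), MIR221 (4.34) and NABP1 (5.84). For DMSO replicate 1 they were a low level of TRIB1 (8.96) and a high level of AFP (11.97).

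The BRD8518 effect differed between 6 h and 1 h, by the test of the difference itself, for 895 genes. The differences, on the log2 scale, were 2.56 for RGCC, 2.51 for KRTAP2-3, 2.06 for LINC-PINT, 2.03 for PLK3, 1.95 for ANKRD1, 1.92 for EDN1, 1.91 for IL11, 1.78 for CPEB4, 1.72 for NABP1, 1.69 for SH3RF1 and 1.39 for MIR17HG. They were −1.73 for ZNF563, −1.65 for FAM200C, −1.53 for HSD17B7, −1.35 for KBTBD7, −1.35 for KAT14, −1.35 for ZNF221, −1.30 for CCDC18, −1.29 for ZNF223, −1.28 for PEX11A and −1.27 for MIR554.

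Probe sets without a gene symbol, which enter no comparison above, held a signal of their own: at 6 h 2146 of 37519 passed the same threshold (5.72%), 954 higher and 1192 lower.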

How the results depend on the processing

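The number of genes past the threshold at 6 h, 2155 with all arrays, was 452 in a fit of the compared groups alone, 3466 with array weights, 1380 at an adjusted p under 0.01, and 1208 to 3345 when 1 of the 6 arrays was left out. It rose without DMSO replicate 2 and dropped without BRD8518 replicate 1 or 2, each of which leaves a lone array assumed to vary like the other groups. For the 6 h effect minus the 1 h effect, 895 became 327 in the fit alone, 1989 with array weights, 401 with the position letter as a fixed term, 432 at an adjusted p under 0.01, and 498 to 1898 with 1 array left out. The other settings moved either count by less than 1.5 times, but centring on the genes tested, chosen after seeing the data, turned the share of rises at 6 h from 38.8% to 58.1%. That centring shifted the median of all genes by 0.08. Of 155 single-gene results past the threshold, 0 changed sign under the settings run, and 35 lost their call in the fit alone. Of the 17 that did not pass, 8 changed sign under at least 1 setting. No paired analysis was possible because replicate numbers were given in accession order and the labels pair no arrays. Precision is limited by 2 BRD8518 arrays, and 2388 genes had a mean level under 4, where signal over background was not measured.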
